A study of Mus musculus with 6 samples.

Results

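The genes described here are 29 mouse genes of cholesterol synthesis, of its control by the transcription factor SREBP2, and of intracellular sterol transport and storage. They were chosen by symbol, and all 29 were found among the 24589 gene symbols of the expression table. Transcript levels were measured by bulk RNA-seq in primary wild-type mouse CD8+ T cells, the cytotoxic arm of the T cell lineage. The cells were activated with antibodies to CD3 and CD28, grown in medium with fetal bovine serum, and then cultured for a further 24 h. Trans-vaccenic acid (TVA), which occurs in ruminant milk and meat, was added at 20 µM in 1 group, and the other group received DMSO, the solvent. Each group had 3 libraries. The labels give neither the age nor the sex of the donor animals, and they do not say whether the libraries came from separate animals or cultures, so the p-values measure only the spread between these libraries.

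Cells build cholesterol from acetyl-CoA. Acetyl-CoA is turned into mevalonate and then into isoprenoid units, which are joined into squalene, and squalene is closed into lanosterol and trimmed to cholesterol. The transcription factor SREBP2 switches on the genes of this route when sterols in the endoplasmic reticulum run low. SCAP escorts SREBP2 to the Golgi, where a pair of proteases releases its active part, and the INSIG proteins hold SCAP back when sterols are plentiful. T cells are known to raise this program when they are activated and divide.

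Of 19 enzymes of sterol synthesis 9 were called higher with TVA, as was Insig1 among 10 control, transport and storage genes. All 29 genes reached the level needed for testing (at least 1 TPM, a transcript abundance corrected for length and scaled to an equal total, in at least 3 libraries). With limma, a linear model fitted across 10866 genes, 10 of the 29 genes had a Benjamini-Hochberg adjusted p under 0.05 and were higher with TVA, against 5.28% of all genes tested. They were Acat2, Hmgcs1, Idi1, Sqle, Cyp51, Hsd17b7, Ebp, Sc5d, Dhcr7 and Insig1. No member passed the threshold as lower, against 3.23% of all genes, and no member was lower at an unadjusted p under 0.05, at which 16 members were higher. That cut took in 31.8% of all genes tested, in either direction. The rises ran from 14.3% to 33.8%, so none of the 10 genes reached 1.5-fold, a size that 0.81% of all genes passed together with the adjusted p. The 3 TVA values lay above the 3 DMSO values for 20 members, against 27.3% of all genes, and below them for 0 members, against 11.2%. The log2 change was positive for 25 members, against 61.5% of all genes. The median log2 change was 0.15 over the members and 0.04 over all genes tested, a difference of 0.11. No test was made of the members as a group, and genes that share a regulator are not independent of each other.

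**Figure D1:**
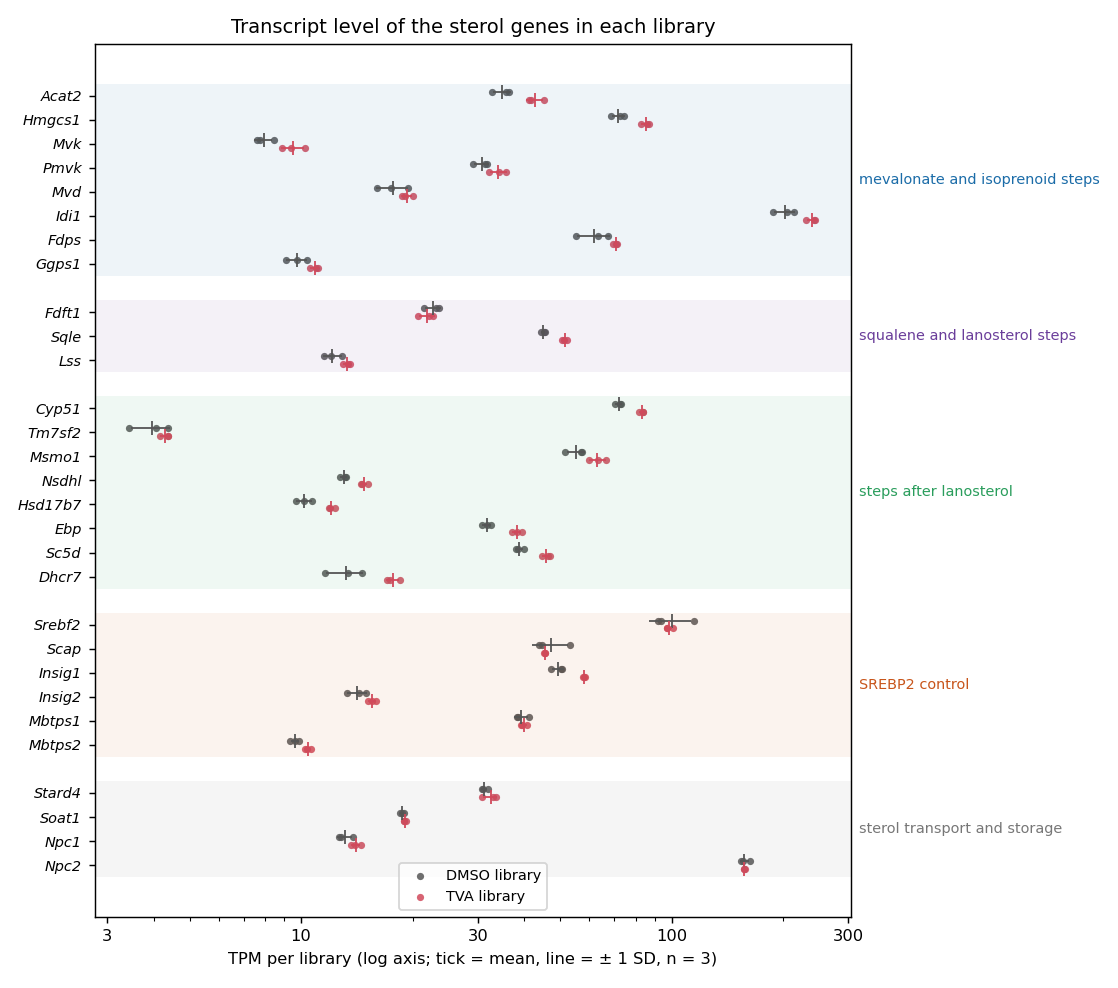
Each point is the TPM of 1 gene in 1 library (log axis), with a tick for the group mean and a line for ± 1 SD over 3 libraries. Dhcr7, Ebp and Insig1 show a clear gap between the DMSO and TVA points, while the points of Npc2, Scap and Srebf2 overlap.

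The calls depended on single libraries. Leaving out any 1 of the TVA libraries left 0 members past the threshold, although 13, 13 and 15 members then had an unadjusted p under 0.05 in limma. At that cut the same fits took in 2711, 2188 and 2174 of the 10866 genes. Of all genes, 0.469%, 0.35% and 0.377% were called higher without TVA replicates 1, 2 and 3. Without DMSO replicate 3, 5 members were called (Cyp51, Ebp, Idi1, Insig1 and Sc5d) against 1.32% of all genes. Without DMSO replicate 2, 12 members were called, the first 10 with Fdps and Msmo1, against 11.3% of all genes. DMSO replicate 2 stood nearer to the TVA libraries over all genes (Pearson r 0.996 with each, across genes) than to DMSO replicates 1 (0.993) and 3 (0.995). Without DMSO replicate 1, 10 members were called, against 5.75% of all genes. The other settings kept all 6 libraries. A pseudocount of 0.1 gave 10 members against 5.38% of all genes, and a minimum mean of 10 TPM gave 10 of 27 members against 5.69%. Without the variance trend, 9 members were called, against 4.39%. Quantile normalization gave 8 (3.29%), median-of-ratios scaling 7 (2.48%) and the inclusion of all genes above 0 TPM 6 (1.61%). None of these settings raised the count above 10, whereas the GC correction, described below, gave 13 (5.35%). Acat2 and Idi1 were not called under either scaling or with all genes above 0 TPM, nor Idi1 without the trend, Sqle after median-of-ratios scaling, or Dhcr7 and Hsd17b7 with all genes above 0 TPM. The balance of all calls depended on the scaling, with 574 of 925 genes higher as reported, 581 of 1118 after the GC correction, 357 of 775 after quantile normalization and 270 of 762 after median-of-ratios scaling, while every member called in these fits was higher. With a replicate block, a term for the replicate number, 1 member was called, Hmgcs1, against 0.856% of all genes. Each of the 10 genes kept a positive log2 change in every fit made. DMSO replicate 3 had the lowest of the 3 DMSO values for 16 members.

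**Figure D2:**
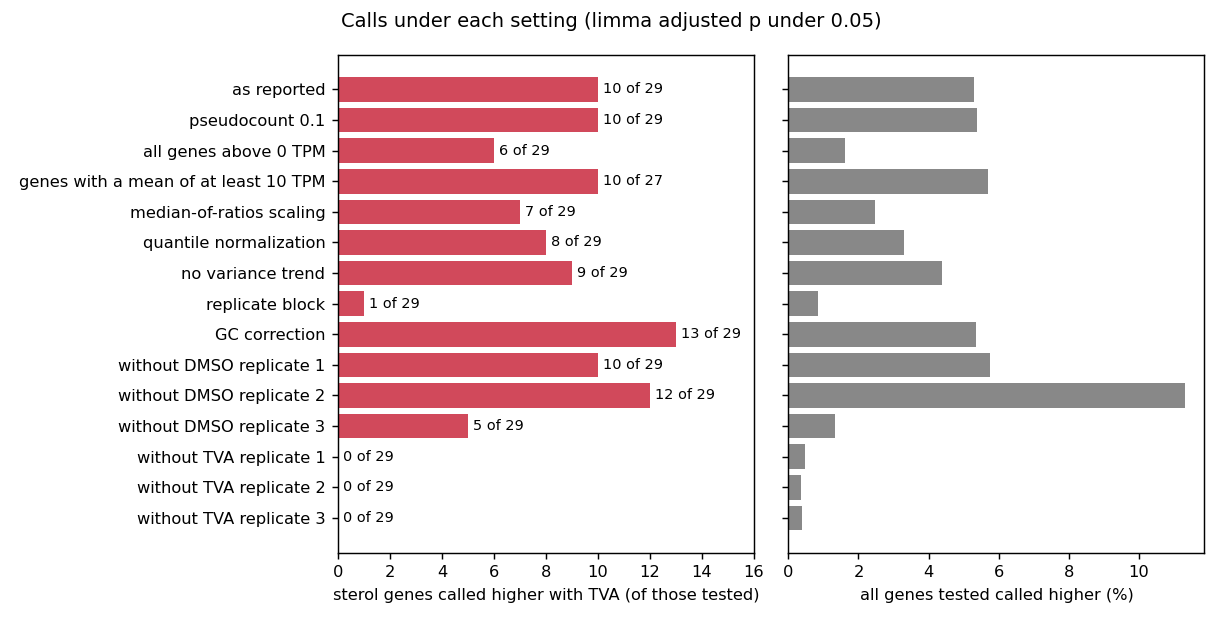
The left bars count the sterol genes called higher with TVA under each setting, and the right bars give the percentage of all genes tested that were called higher under it. The member count runs from 0 without any 1 TVA library to 13 after the GC correction, and the share of all genes moves from 0.35% to 11.3%.

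Markers of other cells and base composition moved between the groups as well. Markers of CD8 T cells were high, with a summed level of 1516 to 1638 TPM with DMSO and 1756 to 1787 TPM with TVA, and 1 of 5, Cd3g, was called higher. Markers of myeloid cells summed to 40.7 to 44.4 TPM with DMSO and 54.2 to 55.8 TPM with TVA. Of 6 such markers 5 were tested and 1, Lyz2, was called higher. Every TVA library lay above every DMSO library for Lyz2, Cd14, Itgam, Csf1r and Adgre1, with TVA over DMSO ratios of 1.31, 1.31, 1.22, 1.52 and 1.85. Csf1r and Adgre1 had low levels, between 0.26 and 1.28 TPM in the 6 libraries. The part of the rise in myeloid markers in the sterol gene values was not tested. In bulk RNA a change in the number of cells of a type and a change in RNA per cell cannot be told apart. The summed B cell, CD4 T cell, NK cell and dendritic cell markers were at most 14.9 TPM in any library and lay lower in every TVA library than in any DMSO library, while red cell markers overlapped. Of these markers, Cd40lg of the CD4 T cell list was called lower (log2 change -0.33, limma adjusted p 0.0301). Across the tested genes, log2 change and transcript GC content correlated negatively (Spearman rho -0.40). The 10 called members had a median GC content of 48.6% (40.8% to 52.9%), the other 19 members 52% (43.6% to 59.3%), and all genes 50.4%. When each library's trend with GC content was subtracted, 13 members were called, the first 10 with Mvk, Pmvk and Mvd, against 5.35% of all genes.

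The members were read against their promoters, since SREBP2 acts at sterol response elements together with NF-Y, a factor that binds CCAAT boxes. RefSeq windows (GRCm38.p6, from 250 bases before to 50 bases after the first-listed start) were found for 24 members and 27025 genes in all. The window of the members without an entry, Fdps, Fdft1, Sqle, Stard4 and Npc1, was not analysed here. The letters searched on both strands were the sterol response letters TCACNCCAC, the core CACCCCAC (which can overlap them), CCAAT and the E-box CACGTG. The 250 bases before the start are printed 5′ to 3′ on the gene's strand for the 4 called genes with a window and the largest rise, for Hmgcs1, and for Npc2, the member with a window whose level moved least. Capitals mark the letters found, and a box on the other strand reads ATTGG. Hmgcs1 was added after its letters were seen.
Dhcr7: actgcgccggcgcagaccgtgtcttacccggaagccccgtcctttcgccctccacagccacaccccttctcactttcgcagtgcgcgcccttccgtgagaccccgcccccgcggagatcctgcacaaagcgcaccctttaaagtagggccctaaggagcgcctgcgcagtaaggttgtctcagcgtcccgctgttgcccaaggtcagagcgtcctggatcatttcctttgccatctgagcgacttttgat
Acat2: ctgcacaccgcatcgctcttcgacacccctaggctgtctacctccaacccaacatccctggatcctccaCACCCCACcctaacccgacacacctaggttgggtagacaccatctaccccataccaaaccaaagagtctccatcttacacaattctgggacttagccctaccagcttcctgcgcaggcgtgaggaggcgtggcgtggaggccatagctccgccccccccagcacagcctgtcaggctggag
Ebp: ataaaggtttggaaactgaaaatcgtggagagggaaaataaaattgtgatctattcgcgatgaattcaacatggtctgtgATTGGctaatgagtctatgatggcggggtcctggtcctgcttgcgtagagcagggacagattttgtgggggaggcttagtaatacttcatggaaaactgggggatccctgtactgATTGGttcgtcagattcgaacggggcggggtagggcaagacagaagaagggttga
Idi1: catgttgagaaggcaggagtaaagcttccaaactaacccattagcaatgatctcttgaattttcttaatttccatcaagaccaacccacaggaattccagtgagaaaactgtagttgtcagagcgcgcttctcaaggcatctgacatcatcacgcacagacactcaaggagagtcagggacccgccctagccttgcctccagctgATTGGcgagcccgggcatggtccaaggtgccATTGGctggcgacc
Hmgcs1: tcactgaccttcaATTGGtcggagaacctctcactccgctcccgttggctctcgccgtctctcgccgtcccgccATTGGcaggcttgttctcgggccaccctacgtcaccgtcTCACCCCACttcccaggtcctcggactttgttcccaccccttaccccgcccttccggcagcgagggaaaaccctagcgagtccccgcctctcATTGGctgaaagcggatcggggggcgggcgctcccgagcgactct
Npc2: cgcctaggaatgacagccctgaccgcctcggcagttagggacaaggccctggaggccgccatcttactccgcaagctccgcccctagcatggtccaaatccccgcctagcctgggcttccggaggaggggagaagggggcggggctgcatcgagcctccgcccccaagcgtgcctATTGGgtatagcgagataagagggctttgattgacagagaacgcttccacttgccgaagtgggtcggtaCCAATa

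The Dhcr7 stretch lies at chr7:143822917-143823166 on the plus strand and is the first of 3 starts listed for the gene. The Acat2 stretch lies at chr17:12960726-12960975 on the minus strand, that of Ebp at chrX:8193513-8193762 on the minus strand, and that of Idi1 at chr13:8885356-8885605 on the plus strand. The Hmgcs1 stretch lies at chr13:119690101-119690350 on the plus strand and that of Npc2 at chr12:84773113-84773362 on the minus strand. All 6 end 1 base before the annotated start of transcription.

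A CCAAT box was found in the window of 19 of the 24 members (79.2%), against 37.9% of all genes with a window and 39.6% of those that were also tested. Between 100 bases and 1 base before the start, 16 members held one (66.7%), against 20.0% of all genes and 24.5% of those tested. Among the synthesis enzymes 14 of 16 held a CCAAT box, and among the control, transport and storage genes 5 of 8 did. By call, 7 of the 9 called members with a window held a CCAAT box, and 12 of the 15 others. Counted from the start, with the base before it as -1, the boxes began at -45 and -14 in Idi1 and at -170 and -55 in Ebp. Npc2, whose level did not pass the test, held 2 boxes as well, whereas Dhcr7 and Acat2 held none in their windows. The sterol response letters were found in Hmgcs1 alone among the members, at -137, and in 1.22% of all genes and 1.03% of those tested. The core was found in Hmgcs1 and in Acat2, where it began at -181, and in 2.77% of all genes and 2.82% of those tested. The E-box was found in Hsd17b7, Insig1, Sc5d and Scap (4 of 24, 16.7%) and in 7.24% of all genes and 10.8% of those tested. A match is a description of the letters and no evidence of binding. A missing match is no evidence that an element is absent, since only exact letters near the first-listed start were searched.

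**Figure D3:**
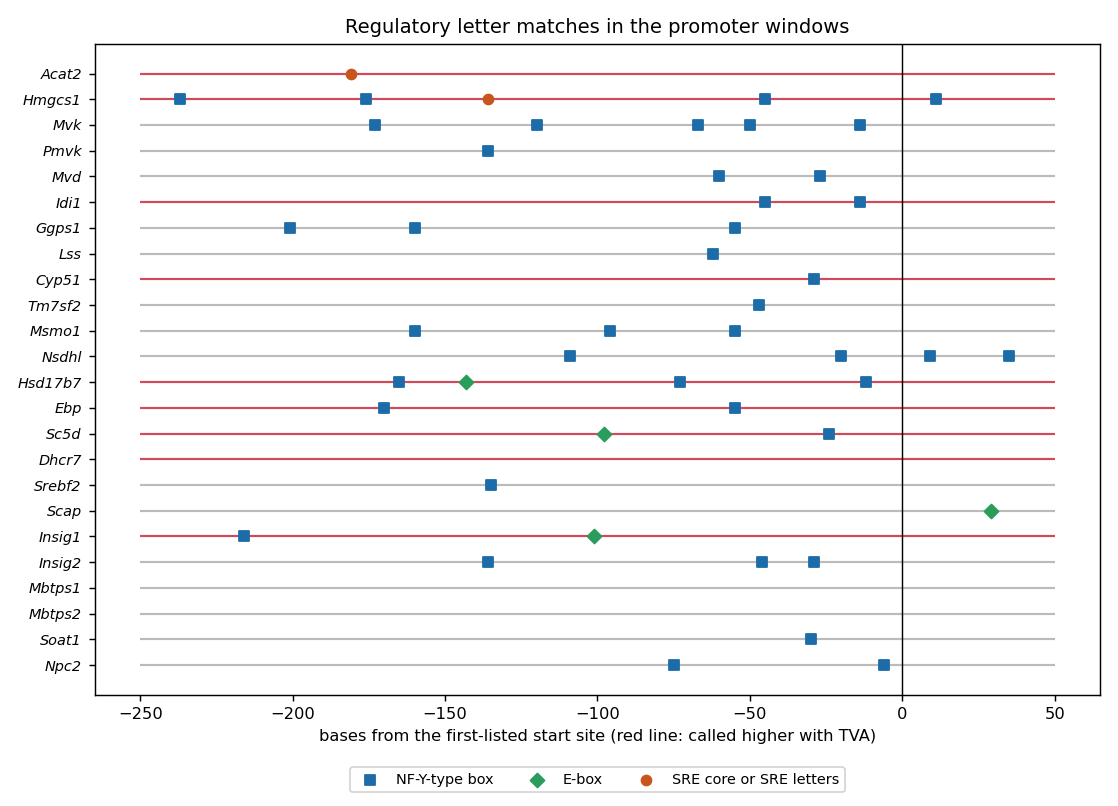
Each line is the promoter window of 1 gene, in bases from the first-listed start, red for genes called higher with TVA, and each marker is the first base of a match. CCAAT boxes (squares) gather in the last 100 bases before the start, in 16 of 24 windows that include called and other genes.

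The first steps of the route make mevalonate and isoprenoid units. Of 8 such genes 3 were called higher (5.28% of all genes), and all 8 had a positive log2 change (61.5% of all genes). The median was 0.21, against 0.04 over all genes. Acat2, which condenses acetyl-CoA units in the cytosol, had 32.8, 36.4 and 35.7 TPM in DMSO replicates 1 to 3 and 45.2, 41.2 and 41.8 TPM in TVA replicates 1 to 3. The groups did not overlap, and the mean rose from 34.9 ± 1.88 to 42.7 ± 2.16 TPM (SD, n = 3), a log2 change of 0.28 ± 0.055 (SE) at a limma adjusted p of 0.0267. Hmgcs1, which makes the HMG-CoA that feeds mevalonate synthesis, had 68.6, 74.3 and 72.4 TPM in the DMSO libraries and 82.6, 85.9 and 86.7 TPM in the TVA libraries. The lowest TVA library stood 8.30 TPM above the highest DMSO library, and the log2 change was 0.24 (SE 0.043, limma adjusted p 0.0212). Acat3, a near copy of Acat2, lay between 0.57 and 1.06 TPM and was not tested. The rise of Acat2 was 0.27 on the log2 scale with both genes summed (limma adjusted p 0.0278, where the range over all alternatives was 0.0128 to 0.109), a sum chosen after the data were seen.

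Idi1, which interconverts the isoprenoid building blocks, was the most abundant member. It had 187, 205 and 214 TPM under DMSO, against 231, 243 and 244 TPM under TVA, so that every TVA library exceeded every DMSO library. The log2 change was 0.25 (SE 0.054, limma adjusted p 0.0376). Its neighbouring copy Idi2 moved the other way, from 31.1, 33.0 and 34.6 TPM with DMSO to 24.2, 25.9 and 24.9 TPM with TVA, a fall of 0.38 on the log2 scale (SE 0.052) with a limma adjusted p of 0.00992. Quantification can assign reads that match both copies to either of them, so both values are uncertain. Whether this happened here was not tested. Summed with Idi2, a setting chosen after the data were seen, Idi1 had a log2 change of 0.17 and was no longer past the threshold (limma adjusted p 0.0804, within 0.0243 to 0.160 over its alternatives). Idi1 also had the lowest GC content of the members (40.8%), and its log2 change was 0.15 after the GC correction, still past the threshold.

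The other genes of these steps had positive log2 changes that did not pass the test. Mvk, mevalonate kinase, had 7.73, 7.59 and 8.43 TPM in the DMSO libraries and 8.88, 10.3 and 9.38 TPM in the TVA libraries. The groups did not overlap, and the log2 change was 0.24 (95% confidence interval 0.08 to 0.39, limma adjusted p 0.0640). Fdps, which makes farnesyl diphosphate, had 63.2, 67.2 and 55.1 TPM under DMSO, against 71.0, 71.2 and 69.7 TPM under TVA. The TVA libraries agreed closely and the DMSO libraries did not, and the log2 change was 0.19 (interval 0.03 to 0.35, limma adjusted p 0.108). Pmvk and Mvd, which act after Mvk, and Ggps1, which makes geranylgeranyl diphosphate, had log2 changes of 0.14, 0.12 and 0.15. The values of Mvd overlapped between the groups, and those of Pmvk and Ggps1 did not. Mvk and Mvd had the highest GC contents of the members (59.3% and 59.2%), and their log2 changes were 0.35 and 0.23 after the GC correction. Exons of Ggps1 overlap those of Arid4b on the other strand (mean 19.5 TPM), and since the use of strand is not stated, its level is uncertain.

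At the squalene and lanosterol steps, 1 of 3 genes was called higher, against 5.28% of all genes. Sqle, squalene epoxidase, had 44.4, 45.2 and 45.4 TPM in the DMSO libraries and 50.7, 52.4 and 51.4 TPM in the TVA libraries. Both groups were tight and 5.27 TPM apart at their nearest libraries, which gave a log2 change of 0.19 ± 0.036 (SE) at a limma adjusted p of 0.0244. Fdft1, which joins farnesyl units into squalene, was the only enzyme among the 19 with a negative estimate. It had 23.1, 23.6 and 21.5 TPM under DMSO, against 20.7, 22.7 and 22.2 TPM under TVA. The groups overlapped, with a log2 change of -0.05 and an interval of -0.18 to 0.07 (limma adjusted p 0.511). Whether the changes of Fdft1 and Sqle differ was not tested. Exons of Fdft1 overlap those of Ctsb on the other strand (mean 46.4 TPM), so that the value of Fdft1 is uncertain. Lss, which closes the lanosterol rings, had a log2 change of 0.12 (interval -0.0015 to 0.25), with the nearest DMSO and TVA libraries 0.06 TPM apart.

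The steps after lanosterol held the most calls, with 5 of 8 genes higher, against 5.28% of all genes. All 8 had a positive log2 change (median 0.21), against 61.5% of all genes. Dhcr7, which makes cholesterol from 7-dehydrocholesterol in the last step of 1 branch of the route, had the largest rise of all members. It had 13.4, 14.6 and 11.6 TPM in the DMSO libraries and 18.5, 17.1 and 17.4 TPM in the TVA libraries. The groups did not overlap, and the mean rose by 33.8%, a log2 change of 0.40 ± 0.080 (SE, 95% interval 0.21 to 0.58) at a limma adjusted p of 0.0284. Means were 13.2 ± 1.51 TPM with DMSO and 17.7 ± 0.741 TPM with TVA (SD, n = 3). Ebp, a sterol isomerase, had 32.5, 31.8 and 30.8 TPM under DMSO, against 38.3, 37.2 and 39.4 TPM under TVA. It had the lowest adjusted p of the members, with a log2 change of 0.27 ± 0.042 (SE) at a limma adjusted p of 0.0162. Sc5d, which acts next after Ebp, had 38.0, 38.4 and 39.95 TPM in the DMSO libraries and 44.6, 46.3 and 46.9 TPM in the TVA libraries. The groups stood apart, with a log2 change of 0.24 ± 0.041 (SE) at a limma adjusted p of 0.0181.

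Cyp51, which removes the first methyl group from lanosterol, had 70.3, 72.4 and 73.2 TPM under DMSO, against 81.4, 83.9 and 84.0 TPM under TVA. The spread was small in both groups, and the log2 change was 0.21 (SE 0.036, limma adjusted p 0.0206). Its exons overlap those of Akap9 on the other strand, whose mean level was 11.8 TPM, so a part of its reads may be uncertain. Hsd17b7, a sterol ketone reductase, had 10.7, 10.2 and 9.68 TPM in the DMSO libraries and 11.9, 11.9 and 12.3 TPM in the TVA libraries. No values were shared between the groups, and the log2 change was 0.22 (SE 0.051, limma adjusted p 0.0422). Nsdhl, which works with it in removing methyl groups, lay just outside the threshold. It had 12.7, 13.2 and 13.2 TPM under DMSO, against 14.6, 15.2 and 14.5 TPM under TVA (log2 change 0.17, 95% interval 0.06 to 0.27, limma adjusted p 0.0564). Msmo1, the methyl sterol oxidase, had a log2 change of 0.19 (interval 0.06 to 0.32, limma adjusted p 0.0741), with every TVA library above every DMSO library. Tm7sf2, a sterol reductase, was the least abundant member at 3.43 to 4.38 TPM. Its log2 change was 0.10 with an interval of -0.09 to 0.29, and its exons overlap those of Vps51.

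Summed over the 19 enzymes, transcript levels were 734, 773 and 757 TPM in DMSO replicates 1 to 3 and 871, 882 and 880 TPM in TVA replicates 1 to 3. The TVA libraries all lay above the DMSO libraries, at 1.16 times their mean. Idi1 made up a large part of this sum, and the ratio was 1.15 without it. Of the 19 enzymes, 9 were called higher (5.28% of all genes were), and 15 had an unadjusted p under 0.05 (31.8% of all genes did). In every fit that tested them, 18 had a positive log2 change, Fdft1 being the exception. Mvk and Tm7sf2 did not enter the fit with a minimum mean of 10 TPM. The control, transport and storage genes summed to 503, 472 and 465 TPM in the DMSO libraries and 491, 491 and 489 TPM in the TVA libraries. These sums overlapped, at a ratio of 1.02, and 1 of 10 genes was called higher, against 5.28% of all genes. The difference between these sets of genes was not tested.

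**Figure D4:**
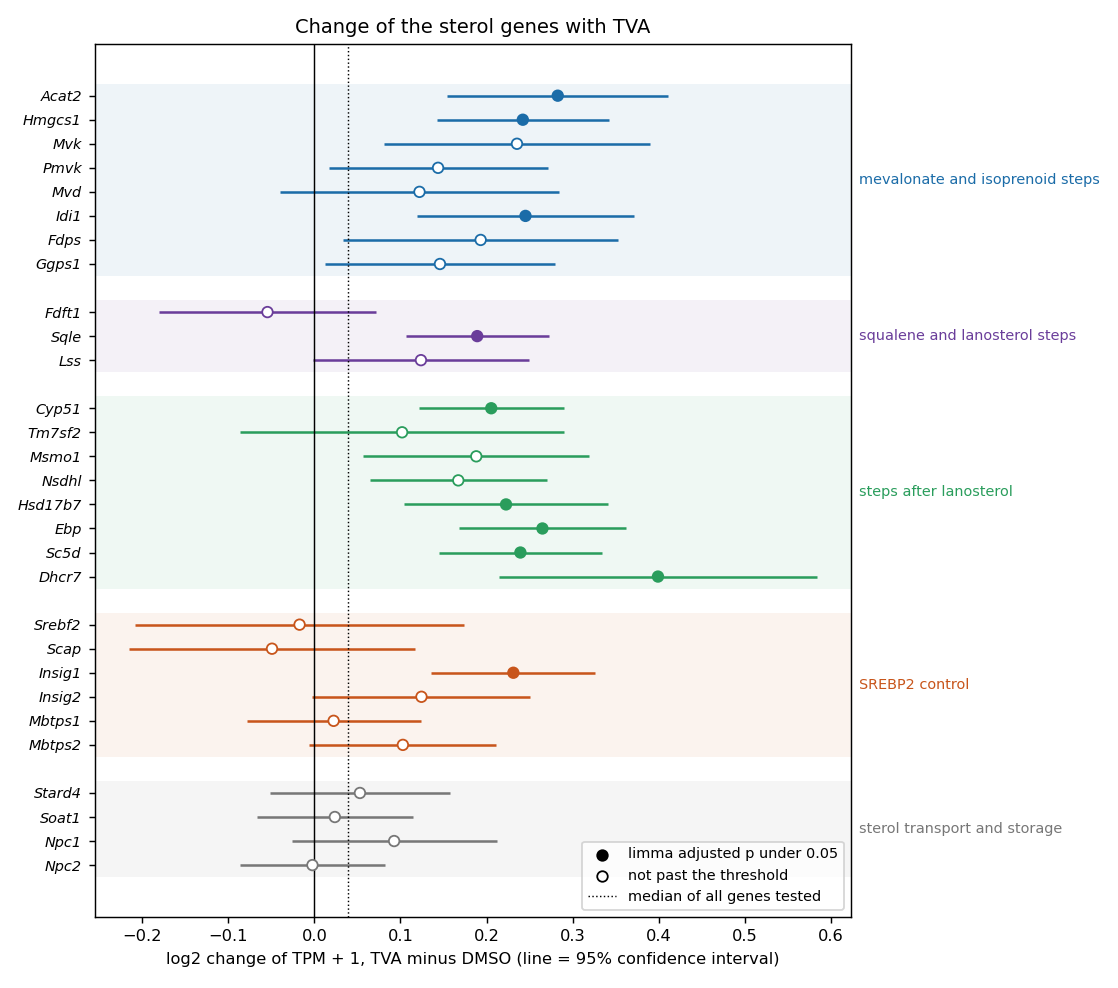
Each point is the log2 change of TPM + 1 (TVA minus DMSO) of 1 gene with its 95% confidence interval, filled where the limma adjusted p was under 0.05, and the dotted line is the median of all genes tested (0.04). The enzymes lie to the right of 0 except Fdft1, and of the lower blocks only Insig1 is filled.

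Among the 6 genes that control SREBP2, Insig1 was the only one called, against 5.28% of all genes called higher. INSIG1 retains SCAP in the endoplasmic reticulum, and its gene is itself a known SREBP target. Insig1 had 50.4, 47.1 and 50.6 TPM under DMSO, against 58.5, 57.7 and 58.2 TPM under TVA. The TVA libraries were nearly equal and lay 7.06 TPM or more above the DMSO libraries, a log2 change of 0.23 ± 0.041 (SE) at a limma adjusted p of 0.0210. Insig2, its relative, had 14.4, 15.0 and 13.3 TPM in the DMSO libraries and 15.2, 15.96 and 15.5 TPM in the TVA libraries. These values did not overlap either, but by a margin of 0.19 TPM, and the log2 change of 0.12 was not past the threshold (interval -0.0023 to 0.25, limma adjusted p 0.163). Whether the changes of Insig1 and Insig2 differ was not tested.

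Srebf2, which encodes SREBP2 itself, had 115, 91.7 and 93.6 TPM under DMSO, against 101, 97.2 and 97.2 TPM under TVA. DMSO replicate 1 was the highest of the 6 libraries and the other DMSO libraries the lowest, so the groups overlapped (log2 change -0.02, interval -0.21 to 0.17, limma adjusted p 0.898). Scap had the same arrangement, with 53.2, 44.6 and 43.8 TPM with DMSO and 45.4 TPM in each TVA library. Its log2 change was -0.05 (interval -0.22 to 0.12, limma adjusted p 0.659). Without DMSO replicate 1 both estimates were positive, at 0.09 for Srebf2 and 0.04 for Scap, and neither passed the threshold. The GC contents of both were high (58.0% and 56.7%). With all libraries the upper bounds of both genes lay below the smallest log2 change among the called members (0.19 for Sqle). The lower bounds left room for a fall. The interval of Sqle (0.11 to 0.27) overlapped those of both genes, and differences between genes were not tested. The proteases that cut SREBP2 are encoded by Mbtps1 and Mbtps2. Mbtps1 had a log2 change of 0.02 (interval -0.08 to 0.12) with overlapping groups. Mbtps2 had one of 0.10 (interval -0.01 to 0.21), from 9.36 to 9.88 TPM with DMSO and from 10.2 to 10.6 TPM with TVA, and its exons overlap those of Yy2.

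None of the 4 transport and storage genes passed the threshold in limma, against 8.51% of all genes in either direction. An unadjusted p under 0.05 was found for 0 of them, against 31.8% of all genes. Npc2, which with Npc1 carries cholesterol out of lysosomes, was the second most abundant member, at 156, 163 and 154 TPM with DMSO and 157 TPM in each TVA library. The TVA values lay inside the DMSO range, with the smallest log2 change of the members (-0.0023, interval -0.09 to 0.08, limma adjusted p 0.971). Npc1 had 13.8, 12.8 and 12.7 TPM in the DMSO libraries and 14.0, 14.5 and 13.6 TPM in the TVA libraries, with overlapping groups (log2 change 0.09, interval -0.03 to 0.21). Soat1, which esterifies cholesterol for storage, ranged only from 18.5 to 19.2 TPM in the 6 libraries. Its 3 TVA values lay above its 3 DMSO values by a margin of 0.02 TPM, and its log2 change was 0.02 (interval -0.07 to 0.11). Stard4, which moves cholesterol between membranes, had 31.0, 31.9 and 30.8 TPM under DMSO, against 30.8, 33.0 and 33.5 TPM under TVA (log2 change 0.05, interval -0.05 to 0.16). For Npc2, Soat1 and Stard4 the upper bounds lay below the smallest rise among the called members (0.19, the estimate for Sqle). Differences between these genes and Sqle were not tested.

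Levels differed between members far more than between groups. TPM is scaled by transcript length, so levels can be set side by side. Annotated antisense transcripts overlap exons of Hmgcs1, Lss and Npc1. Other transcripts on the other strand overlap those of Idi1 and Scap, and Rmc1 those of Npc1. Without a stated use of strand these levels carry some uncertainty too. For Fdps the overlapping gene, Gm43738, lies on the same strand, so that its level is uncertain whatever the use of strand. With DMSO the order began with Idi1 (202 ± 13.5 TPM), Npc2 (157 ± 4.70 TPM) and Srebf2 (100.1 ± 13.0 TPM) (SD, n = 3). Cyp51 (71.9 ± 1.49 TPM) and Hmgcs1 (71.8 ± 2.89 TPM) followed, and those neighbours did not differ beyond their spread. The order ended with Mbtps2 (9.62 ± 0.260 TPM), Mvk (7.92 ± 0.450 TPM) and Tm7sf2 (3.95 ± 0.479 TPM). The called members had a median DMSO level of 41.9 TPM and the other members one of 18.7 TPM. The median coefficient of variation of the members was 4.82% with DMSO and 2.56% with TVA, against 6.17% and 3.17% over all genes tested.

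A wider list of 52 sterol and isoprenoid genes in the table was read beside the members. Of these 50 were tested, 6 were called higher and 1 lower, against 8.51% of all genes in either direction, and 18 had an unadjusted p under 0.05, against 31.8% of all genes. The median log2 change was 0.06. Lipa, the lysosomal lipase that frees cholesterol from its esters, had 21.6, 22.8 and 20.8 TPM in the DMSO libraries and 27.4, 27.2 and 27.3 TPM in the TVA libraries. The groups stood well apart (log2 change 0.31, SE 0.045, limma adjusted p 0.0121). Rnf145, a ubiquitin ligase of the endoplasmic reticulum with a part in sterol feedback, had 64.4, 58.1 and 59.3 TPM under DMSO, against 74.0, 73.9 and 73.5 TPM under TVA, a rise of 0.28 on the log2 scale (SE 0.046) with a limma adjusted p of 0.0166. On the isoprenoid branches, Rabggtb, a subunit of the enzyme that attaches geranylgeranyl groups to Rab proteins, was 12.9% higher (limma adjusted p 0.0344). Zmpste24, a protease of farnesylated prelamin A, was 13.3% higher (limma adjusted p 0.0453), but its log2 change of 0.18 was 0.09 after the GC correction. Of 14 alternatives, Rabggtb was not called in 9 and Zmpste24 in 11, the GC correction and both scalings among them, with limma adjusted p-values of up to 0.159 and 0.185. Gramd1a, which brings cholesterol from the plasma membrane to the endoplasmic reticulum, was the only one called lower. It had 95.9, 84.3 and 84.1 TPM in the DMSO libraries and 75.2, 72.1 and 71.9 TPM in the TVA libraries, a log2 change of -0.26 with an SE of 0.057 and a limma adjusted p of 0.0359. None of the 12 genes listed as partners of SREBP passed the threshold in limma, and 1 had an unadjusted p under 0.05. That gene was Nfya, an NF-Y subunit named here after its values were seen, with 31.3, 32.3 and 29.2 TPM in the DMSO libraries and 35.7, 35.5 and 34.1 TPM in the TVA libraries (log2 change 0.18, 95% interval 0.07 to 0.29, limma adjusted p 0.0598). The groups did not overlap.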

How the data were processed

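Bulk RNA-seq libraries of activated CD8+ T cells, 3 with TVA and 3 with DMSO, were compared, grouped by their titles. The authors deposited 1 table of TPM per gene symbol, with 2 decimals, and the values were used as deposited. The submitters' processing notes name STAR, RSEM and mm10, while their versions, the annotation and the use of strand are not given in the sources used here. TPM keeps no trace of depth, so the depth of each library is unknown and no counting interval is given. TPM levels are relative to all transcripts of a library.

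Values were analysed as log2(TPM + 1), computed here from the deposited TPM, on which the fold change of low genes is understated. The 10866 genes with at least 1 TPM in at least 3 libraries were fitted with limma 3.58.1 in R 4.3.3 (eBayes with a trend, two-sided, no replicate block), with Benjamini-Hochberg adjustment over all of them and a threshold of 0.05. A call is a gene past this threshold. Results were recomputed with a pseudocount of 0.1, all genes above 0 TPM, quantile normalization, median-of-ratios scaling, a minimum mean of 10 TPM, no trend, a replicate block, each library left out, a fold of at least 1.5, and a GC correction (loess of each library's deviations on transcript GC content in GENCODE vM21, span 0.5). GC values were found for 99.4% of the genes tested. Promoter windows came from the RefSeq table of GRCm38.p6, and exon overlaps from GENCODE vM21. Plots were drawn with matplotlib 3.10.9.

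All members were named, those past the threshold and those with the largest changes in full, together with those of the wider list past the threshold, not all of which are reported here. Promoters were shown for the called genes with the largest rise and the member that moved least. The members, gene lists, markers and letters were chosen with earlier results of these data known.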

Additional observations from a re-analysis of the deposited data

How the results depend on the processing

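Depth is unknown, groups of 3 give wide intervals, and 1 library can decide a call. Over all genes, 925 genes were called, against 494 with all genes above 0 TPM, 608 with a mean of at least 10 TPM and 88 with at least 1.5-fold, and 102 to 2242 with 1 library left out. Of the members, 10 were called as reported, and 16 had an unadjusted p under 0.05 in limma (31.8% of all genes did). The count of called members was 6 with all genes above 0 TPM and 0 with at least 1.5-fold. It was 8 after quantile normalization, 7 after median-of-ratios scaling, 13 after the GC correction, and 0 to 12 with 1 library left out. Of the wider list, 7 genes were called, against 4 with all genes above 0 TPM, 4 after each of both scalings (median-of-ratios and quantile), 0 with at least 1.5-fold and 0 to 10 with 1 library left out (13 to 19 at an unadjusted p under 0.05). The cause of these moves was not tested, except that fewer libraries or more genes entered some fits. The member median minus that of all genes, 0.11, was 0.14 with all genes above 0 TPM, 0.13 after the GC correction and 0.089 to 0.14 with 1 library left out. With a replicate block, 218 genes, 1 member (Hmgcs1) and 2 genes of the wider list were called. Same-numbered libraries were not shown to be pairs, since their deviations correlated at 0.16, 0.035 and -0.077. Estimates near 0 changed sign without passing the threshold: Srebf2 (0.062), Scap (0.0033), Stard4 (-0.0013) and Soat1 (-0.031) after the GC correction, Mbtps1 (-0.015) and Soat1 (-0.012) after median-of-ratios scaling, and Soat1 (-0.0026) after quantile normalization. With 1 library left out, Srebf2 ranged from -0.076 to 0.086, Scap from -0.099 to 0.038 and Npc2 from -0.019 to 0.022, with the positive values of Srebf2 and Scap without DMSO replicate 1 and that of Npc2 without DMSO replicate 2. No called member changed sign in any fit.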
